A study of Mus musculus with 19 samples.

Results

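The CD3 complex is made of the γ, δ, ε and ζ chains, encoded by *Cd3g*, *Cd3d*, *Cd3e* and *Cd247*. The members described here are the RNA rows of these 4 genes, chosen by name, of 28692 genes counted. They are shown beside the antibody to the TCR β chain (TCRb), in every genotype, stage and cell type of a single-cell dataset of mouse thymocytes. All 4 passed the filter on low counts in every RNA fit.

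The TCR α and β chains bind a peptide on an MHC molecule but carry no signaling motif of their own. The signal is passed on by the CD3 chains, whose cytoplasmic tails hold the ITAM motifs that LCK phosphorylates and ZAP-70 then binds. The receptor reaches the surface only as a complex with CD3 dimers, and the ζ chain joins late in its assembly.

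RNA and surface proteins of the same cells were counted by CITE-seq, in which antibodies carry DNA tags, in thymi of 17 female mice of 4 to 8 weeks on 19 lanes in 3 experiments. There were 5 wild-type C57BL/6 (B6) mice and 2 mice of each of 6 lineage-restricted genotypes. The CD4-fated genotypes were AND and OT-II, with transgenic TCRs that see MHC class II, and MHCI-/- (*B2m*-deficient). The CD8-fated genotypes were F5 and OT-I, with transgenic TCRs that see MHC class I, and MHCII-/- (*H2-Ab1*-deficient). AND and F5 mice were also *Rag1*-/-, so that each carried a single rearranged TCR. B6 replicates 1 to 3 and the MHC-deficient mice were sorted for CD5+TCRβ+ cells, which removes cells with little surface TCR. The OT-I and OT-II mice were all in the third experiment, done at another site per the study's sample sheet, so that site and genotype family cannot be told apart among these genotypes. B6 replicates 4 and 5 were also in the third experiment, so that B6 mice were run at both sites. Nothing in the labels says whether mice of a genotype were littermates.

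*Cd3g* (ENSMUSG00000002033, chr9:44969572-44980431, minus strand) and *Cd3d* (ENSMUSG00000032094, chr9:44981786-44987339, plus strand) lie head to head in the GRCm38 annotation (GENCODE), with 1355 bases between their starts. *Cd3e* (ENSMUSG00000032093, chr9:44998740-45009627, minus strand) lies next to them. *Cd247* (ENSMUSG00000005763, chr1:165788681-165877277, plus strand) is on another chromosome. The 250 bases before each start are shown, since *Cd247* lies apart from the other 3 genes and its RNA fell furthest in CD8 Mat cells. The starts are those of RefSeq, and that of *Cd3e* lies a few bases inside the GENCODE gene. The sequences were taken from RefSeq (GRCm38.p6) at chr9:44980432-44980681 for *Cd3g*, chr9:44981536-44981785 for *Cd3d*, chr9:45009612-45009861 for *Cd3e* and chr1:165788431-165788680 for *Cd247*. Capitals mark matches to an ETS motif (letters GGAAGT on either strand) or to a GATA motif (letters AGATAA on either strand).
Cd3g: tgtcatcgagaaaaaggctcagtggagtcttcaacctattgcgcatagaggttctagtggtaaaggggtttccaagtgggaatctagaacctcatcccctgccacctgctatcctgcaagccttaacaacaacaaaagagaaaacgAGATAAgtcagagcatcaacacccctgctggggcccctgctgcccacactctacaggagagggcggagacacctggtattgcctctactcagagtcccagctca
Cd3d: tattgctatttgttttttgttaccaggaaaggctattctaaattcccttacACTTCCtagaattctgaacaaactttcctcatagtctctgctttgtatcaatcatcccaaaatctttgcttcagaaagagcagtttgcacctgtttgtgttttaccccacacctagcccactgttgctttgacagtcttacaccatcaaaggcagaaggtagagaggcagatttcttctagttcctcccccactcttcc
Cd3e: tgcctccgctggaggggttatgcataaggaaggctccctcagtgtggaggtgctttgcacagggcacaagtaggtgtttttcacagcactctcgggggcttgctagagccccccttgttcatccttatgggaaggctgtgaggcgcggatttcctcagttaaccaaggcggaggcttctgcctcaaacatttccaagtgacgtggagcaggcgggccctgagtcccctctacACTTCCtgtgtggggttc
Cd247: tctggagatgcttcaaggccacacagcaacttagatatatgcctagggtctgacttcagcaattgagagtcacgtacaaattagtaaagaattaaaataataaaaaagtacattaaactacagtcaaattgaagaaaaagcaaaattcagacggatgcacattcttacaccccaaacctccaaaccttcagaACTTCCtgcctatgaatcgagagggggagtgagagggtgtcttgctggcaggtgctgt

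The promoters of *Cd3d*, *Cd3e* and *Cd247* held 1 ETS match each, and that of *Cd3g* held 1 GATA match and no ETS match. Among 32851 promoter windows, 250 bases before to 50 after a start, 19.7% held the ETS letters and 9.99% the GATA letters, on either strand. No match to a RUNX motif (letters TGTGGT) was found in the 4 stretches printed, against 14.05% of all windows. A TATA box (letters TATAAA) was not found either, against 12.4% of all. E-boxes (CANNTG) were present 1 to 3 times in each of the 4, as in 66.2% of all. These matches describe the letters only.

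Of 85389 barcodes, 72054 passed the filters, and lane medians ran from 1519 to 7259 RNA UMIs (unique molecular identifiers) per cell. *B2m* stood at 47.8 and 49.0 CPM (UMIs of a gene per 1000000 RNA UMIs) in the MHCI-/- mice and at 386 to 1253 in the others. *H2-Ab1* was low in most mice and, with 8.72 and 8.75 CPM where it is deleted against 2.79 to 264 elsewhere, did not separate the genotypes. Lanes shared at most 35 cell barcodes, 1.27% of the smaller lane. B6 replicate 5, OT-I replicate 2 and OT-II replicate 2, the 3 mice of the higher replicate number of their genotype in the third experiment, stood apart. Their lanes had medians of 1519 to 3192 UMIs, and their *Cd3g* and *Cd3d* levels lay far below those of the other mice in most stages, while *Cd3e* did not. B6 replicate 4, with lane medians of 2880.0 and 3483, held 1429 CPM of *Cd3g* and 1274 CPM of *Cd3d* over both lanes. A part of depth in this was not tested. Stage comparisons in B6 mice were therefore made within mice and also without each mouse.

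Stages were set by gates on surface CD4, CD8a, CD69 and CD127, none of which is a CD3 chain. DP1, DP2 and DP3 are CD4+CD8+ (double-positive) gates, ordered by gain of CD69 and then CD127. CD4+CD8lo cells have lost CD8 but lack CD127. The gate names follow the study, which also gated on TCRβ and took DP3 as TCRβ high. There, CD8-fated but not CD4-fated cells passed through DP3, after CD4+CD8lo, and the cytometry gate for CD4+CD8lo did not use CD127. TCRβ was not used here, and the DP3 gate also held 1923 cells of CD4-fated mice. Semimature (SM) and mature (Mat) cells of either lineage have CD127, with and without CD69. *Rag1*, which recombines receptor genes in double-positive cells, stood at 533 to 3184 CPM in DP1 and at 1.81 to 211 in CD4 Mat and 4.61 to 425 in CD8 Mat cells of B6 mice, with replicate 5 the highest in both mature gates. By RNA clusters, in wild-type mice DP1 held 74.6% quiescent DP-like cells, CD4 Mat 85.3% mature SP-like (single-positive) cells and CD8 Mat 80.4% CD8 SP-like cells. DP2 and DP3 still held 52.6% and 48.7% quiescent DP-like cells there, and CD4+CD8lo held 32.2% CD4 SP-like, 31.5% mature SP-like and 2.22% signaled DP-like cells. These 3 gates were mixed, and CD4+CD8lo shared its classes with the CD4 SM and CD4 Mat gates. The shares are over all B6 cells pooled, and the mice differed. *Rag1* in DP2 stood at 19.7, 45.3 and 37.9 CPM in the sorted replicates 1 to 3 and at 1505 and 2479 in the unsorted replicates 4 and 5. In DP3 it stood at 23.8, 32.4 and 51.5 CPM in replicates 1 to 3 and at 1415 and 2099 in replicates 4 and 5. The CD127 threshold was 1.44 antibody UMIs per 10000 in the third experiment, against 5.95 and 2.49 in the first and second.

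The first question was how the RNA of the 4 chains moved while wild-type thymocytes matured. *Cd247*, which encodes the ζ chain, fell from DP1 to both mature stages, and further in the CD8 than in the CD4 lineage. The changes of the other 3 chains were mixed. *Cd3g* was higher in CD4 Mat by about as much as *Cd247* was lower under TMM, and several of these calls, with the direction of *Cd3d* and *Cd3e* in CD4 Mat and of *Cd3g* in CD8 Mat, depended on how libraries were scaled.

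*Cd247* stood at 579, 455, 382, 418 and 332 CPM in DP1 cells of B6 replicates 1 to 5. It stood at 269, 302, 259, 192 and 179 CPM in their CD4 Mat cells. It stood at 177, 179, 168, 106 and 122 CPM in their CD8 Mat cells. All 5 mice were lower in CD4 Mat than in DP1 and lower again in CD8 Mat, and the DP1 range did not overlap either mature range. The log2 fold change was -0.44 ± 0.10 (SE; adjusted p = 0.00055) in CD4 Mat and -1.16 ± 0.10 (SE; adjusted p = 4.3e-12) in CD8 Mat over DP1, by the edgeR quasi-likelihood test (TMM scaling, Benjamini-Hochberg adjustment). CD4 Mat exceeded CD8 Mat by 0.72 ± 0.11 (SE; adjusted p = 4.9e-06). These 3 calls held without each B6 mouse in turn.

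TMM centers the comparison on the bulk of genes. With the total RNA UMIs of each sum as its library size instead, the median of all genes tested shifted to -0.43 in CD4 Mat and -0.38 in CD8 Mat, and *Cd247* stood at -0.83 (adjusted p = 8.6e-09) and -1.53 (adjusted p = 2.8e-15). It thus fell under both scalings, to -1.53 against that median of -0.38 in CD8 Mat.

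*Cd3g*, the γ chain, stood at 1568, 1616, 1247, 1477 and 621 CPM in DP1, 1656, 1503, 1448, 1546 and 586 in CD4 Mat and 1425, 1515, 1378, 1035 and 545 in CD8 Mat cells of B6 replicates 1 to 5. Replicate 5 was far below the other 4 in all 3 gates, and the ranges overlapped between gates. Under TMM it was higher in CD4 Mat at 0.43 ± 0.08 (SE; adjusted p = 1.5e-05) and in CD8 Mat at 0.21 ± 0.08 (SE; adjusted p = 0.019). With total UMIs these became 0.03 (adjusted p = 0.77) and -0.16 (adjusted p = 0.046), so that its direction was not settled in CD8 Mat. The CD8 Mat call under TMM was also lost without B6 replicate 1 (0.21), replicate 2 (0.16) or replicate 3 (0.15).

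*Cd3d*, the δ chain, stood at 1815, 1765, 1515, 1473 and 812 CPM in DP1 and 1164, 1287, 1187, 814 and 547 in CD8 Mat cells. All 5 mice were lower in CD8 Mat, with overlapping ranges. Under TMM the change was -0.19 ± 0.08 (SE; adjusted p = 0.034) in CD8 Mat and 0.08 ± 0.08 (SE; adjusted p = 0.43) in CD4 Mat. The CD8 Mat call was lost without B6 replicate 1 (-0.17), replicate 4 (-0.10) or replicate 5 (-0.14). With total UMIs *Cd3d* stood at -0.56 (adjusted p = 4.5e-08) in CD8 Mat and -0.31 (adjusted p = 0.00054) in CD4 Mat, near the median shift in the latter.

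*Cd3e*, the ε chain shared by both CD3 dimers, had 1131, 792, 602, 518 and 651 CPM in DP1 and 854, 666, 551, 323 and 396 in CD8 Mat cells. B6 replicate 1 was the highest in both gates. No change passed the test under TMM, at 0.02 ± 0.09 (SE; adjusted p = 0.89) in CD4 Mat and -0.06 ± 0.09 (SE; adjusted p = 0.60) in CD8 Mat, but total UMIs gave -0.37 (adjusted p = 0.00015) and -0.42 (adjusted p = 1.8e-05).

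In all, 2 of 4 chains were called in CD4 Mat over DP1, where 41% of 9759 genes were, and 3 of 4 in CD8 Mat over DP1, where 51.8% were. The calls over all genes were 2077 higher and 1928 lower in CD4 Mat under TMM, and 1143 higher and 4587 lower with total UMIs. In CD8 Mat they were 2558 higher and 2499 lower under TMM and 1463 higher and 4553 lower with total UMIs. These sums over cells cannot tell fewer chain-expressing cells from less RNA per cell. Shares of cells with a UMI of a chain are given below by RNA class, not by gate.

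**Figure D1:**
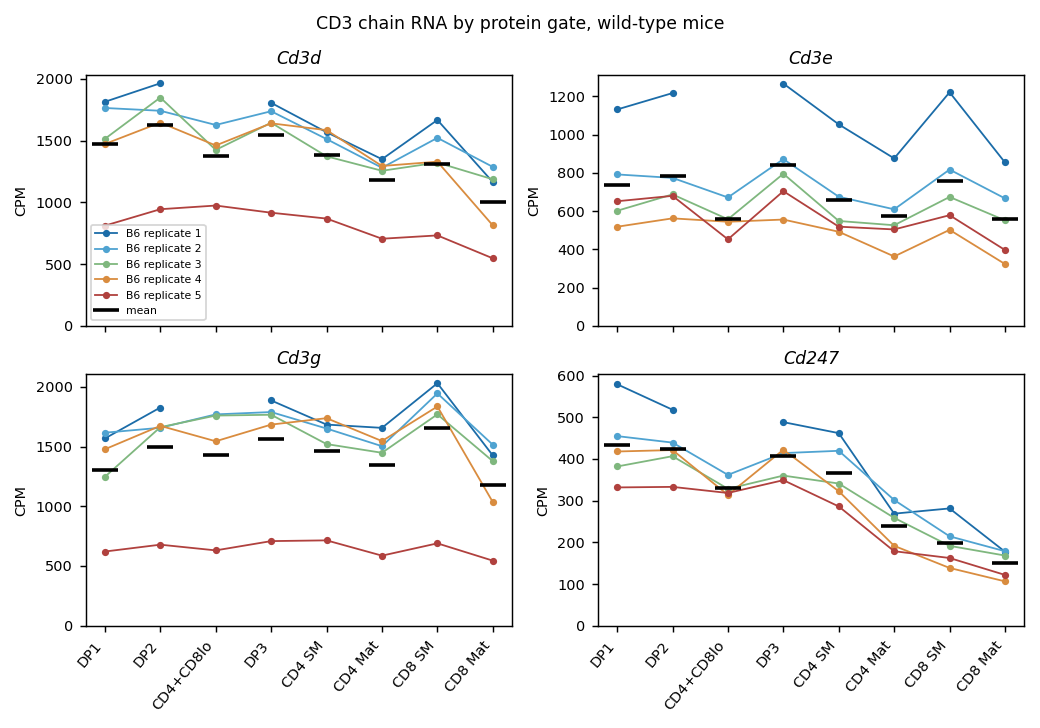
CPM of each CD3 chain by gate in the 5 wild-type mice; each point is the UMIs of 1 mouse and gate, lines join the gates of a mouse, and black bars are means. *Cd247* runs from 332 to 579 CPM in DP1 down to 106 to 179 in CD8 Mat, and replicate 5 lies lowest for *Cd3g* and *Cd3d* in every gate.

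Between the mature lineages, 3 of 4 chains were higher in CD4 Mat than in CD8 Mat cells, where 23% of genes were called. Beside *Cd247*, these were *Cd3d* at 0.27 ± 0.08 (SE; adjusted p = 0.0091) and *Cd3g* at 0.22 ± 0.08 (SE; adjusted p = 0.035), and *Cd3e* stood at 0.08 ± 0.09 (SE; adjusted p = 0.57). The *Cd3d* call was lost without B6 replicate 4 (0.15) or 5 (0.21). The *Cd3g* call was lost without replicate 1 (0.19), 3 (0.22), 4 (0.10) or 5 (0.19). In the 3 sorted mice edgeR put *Cd247* at 0.66 (adjusted p = 4.9e-06), *Cd3d* at 0.0857 (adjusted p = 0.46) and *Cd3g* at 0.0843 (adjusted p = 0.45). Without the unnamed clusters led by replication genes, edgeR put *Cd247* at 0.57 (adjusted p = 0.00012) and *Cd3d* at 0.0497 (adjusted p = 0.66). *Cd3g* stood at -0.00923 (adjusted p = 0.97) and *Cd3e* at -0.0925 (adjusted p = 0.54) there. *Mki67*, a marker of dividing cells, stood at 61.3, 33.2, 77.5, 117 and 124 CPM in CD4 Mat and 102, 23.1, 77.2, 385 and 234 CPM in CD8 Mat cells of replicates 1 to 5. Of the 4 differences only that of *Cd247* was called in each of these fits. How many of all genes the fits other than the first called is not given here, so that their calls say little alone.

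By gate, DP3 held 488, 414, 360.2, 422 and 349 CPM of *Cd247*. CD8 SM, the next gate of the CD8 lineage in the study's order, held 281, 214, 192, 138 and 162. Pooled over B6 mice, DP3 still held many quiescent DP-like cells, the main class of DP1, so that its level does not date the fall. *Rag1* in DP3 was high in replicates 4 and 5 only, as given with the gates. The step from DP3 to CD8 SM had the same direction in replicates 1 to 3. By class *Cd247* was called lower in signaled DP-like but not in CD4 SP-like cells under TMM, as given with the RNA classes. The classes thus do not date the fall either. The DP3 and CD8 SM ranges did not overlap. From DP3 to CD8 Mat, *Cd247* fell by 1.15 ± 0.10 on the log2 scale (SE, adjusted p = 6.9e-12). *Cd3d* at -0.35 ± 0.08 (SE; adjusted p = 0.00031) and *Cd3e* at -0.30 ± 0.09 (SE; adjusted p = 0.0037) were also lower, and *Cd3g* stood at -0.11 ± 0.07 (SE; adjusted p = 0.22). These 3 calls of 4 compare with 48.6% of all genes, and that of *Cd3e* was lost without B6 replicate 5 (-0.20). Those of *Cd3d* and *Cd3e* were lost in the sorted mice (-0.16 and -0.14) and without the unnamed clusters led by replication genes (-0.0431 and -0.0795), where *Cd3g* was called higher (0.18). *Cd247* was called in both, at -0.91 and -0.96. *Ptcra*, *Trdc*, *Tcrg-C1* and *Tcrg-C2*, genes of immature or γδ cells, rose between these gates, with values among the pathway genes, and their part was not tested. In the CD4 lineage *Cd247* was higher in CD4 SM cells, at 462, 419.7, 341, 323 and 286 CPM, than in CD4 Mat cells of every mouse. No test was run on the SM gates.

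The steps between the earlier gates called no chain under TMM with the gates and cells as described. Other settings under TMM did call some. The shares of all genes called under them are given for the classes only, so that the other counts say little alone. From DP1 to DP2 these were 3 chains with signaled DP-like against quiescent DP-like cells in place of the gates, where 35.4% of genes were called. They were 2 with all cells gated, 2 with antibody counts averaged over neighboring cells and 1 in the sorted B6 mice. From DP2 to CD4+CD8lo 1 was called in the sorted mice and 1 with averaged antibodies. From CD4+CD8lo to DP3 1 was called with the filters on RNA alone and 1 with averaged antibodies. From DP1 to DP2, where 4.09% of genes were called, the 4 changes ran from -0.01 to 0.20, with 2 of 4 at an unadjusted p under 0.05 in edgeR and 2 in DESeq2, which called 0. From DP2 to CD4+CD8lo (10.3% called) they ran from -0.12 to 0.15, with 0 at an unadjusted p under 0.05 in edgeR and 1 in DESeq2, which called 0. B6 replicate 1 had 17 CD4+CD8lo cells, under the minimum of 20, and did not enter that gate. From CD4+CD8lo to DP3 (6.67% called) and to CD4 Mat (4.58% called), edgeR and DESeq2 called 0 chains, and each tool gave 1 an unadjusted p under 0.05. Without B6 replicate 4, *Cd3e* was called in DP3 over CD4+CD8lo at 0.37 (adjusted p = 0.042).

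A share of the chains' own UMIs needs no scaling between libraries. Since UMIs were counted at the 3′ end and capture may differ between transcripts, the share is compared between stages and is not a ratio of proteins. *Cd247* made up 11.4, 9.83, 10.2, 10.8 and 13.7% of the 4 chains' UMIs in DP1 cells of B6 replicates 1 to 5. Its share was 6.48, 8.16, 7.42, 5.64 and 9.05% in CD4 Mat and 4.90, 4.90, 5.12, 4.67 and 7.57% in CD8 Mat cells. Every B6 mouse fell in this order, with replicate 5 the highest in each gate.

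Over all 13 mice with both stages, the share fell in 12 from DP1 to CD4 Mat, by 2.30 ± 1.82 percentage points (SD, n = 13, two-sided exact sign-flip permutation p = 0.000732). It fell in 13 of 13 mice from DP1 to CD8 Mat, by 4.15 ± 2.14 percentage points (SD, n = 13, two-sided exact sign-flip permutation p = 0.000244, the smallest these mice allow). The 5 B6 mice, both OT-I mice and 1 mouse each of AND and OT-II entered both tests. Mature gates against the fate were small and mostly held unnamed cells. CD4 Mat of all CD8-fated mice had 88 cells, 65.9% unnamed, and CD8 Mat of all CD4-fated mice had 79, 83.5% unnamed. In B6 mice 12.8% and 14.8% of these gates were unnamed.

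**Figure D2:**
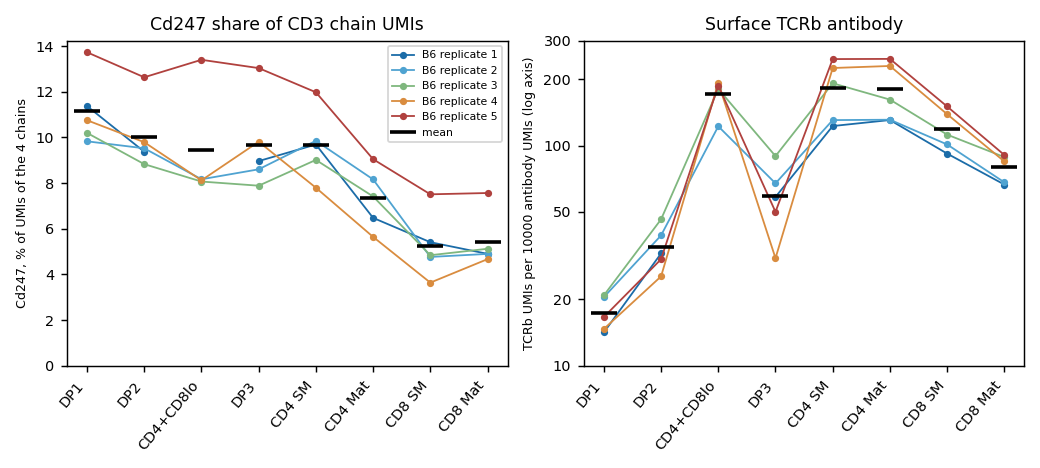
Left, *Cd247* as a percentage of the UMIs of the 4 chains, and right, TCRb antibody UMIs per 10000 antibody UMIs on a log axis, by gate in the 5 wild-type mice; points are mice and black bars means. The share falls from a mean of 11.2% in DP1 to 5.43% in CD8 Mat while the antibody rises from 17.4 to 79.8.

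The surface receptor went the other way from *Cd247*. TCRb antibody stood at 14.2, 20.5, 20.9, 14.7 and 16.6 per 10000 antibody UMIs in DP1 cells of B6 replicates 1 to 5. It stood at 131, 131, 162, 230.4 and 248 in CD4 Mat and 66.6, 68.1, 88.8, 84.8 and 90.7 in CD8 Mat cells. The 3 ranges did not overlap. In B6 mice TCRb ran from 9.54 to 11.3 in DN-like cells (2 mice) and from 15.6 to 47.2 in myeloid-like cells (3 mice). The DP1 values lay near these, and the part of background antibody in the size of the rises here and below was not tested. By edgeR over 111 antibodies, TCRb rose by 3.36 ± 0.27 (SE; adjusted p = 3.9e-12) in CD4 Mat and 2.05 ± 0.26 (SE; adjusted p = 9.9e-08) in CD8 Mat on the log2 scale, where 50.5% and 57.7% of antibodies were called. CD4 Mat exceeded CD8 Mat by 1.31 ± 0.25 (SE; adjusted p = 0.00012), where 36% were called. TCRb was itself a sort antibody in B6 replicates 1 to 3, and the rise was of the same direction in the unsorted replicates 4 and 5.

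TCRb rose first from DP1 to DP2, by 1.05 ± 0.25 (SE; adjusted p = 0.0068), where 6.31% of antibodies were called. That call was lost without B6 replicate 2 (1.02) or 5 (1.04). From DP2 to CD4+CD8lo it rose by 2.26 ± 0.27 (SE; adjusted p = 3.9e-08), and DP3 stood at -1.53 ± 0.27 (SE; adjusted p = 3.7e-05) over CD4+CD8lo, where 23.4% and 23.4% were called. Unlike the study's, this DP3 gate did not require high TCRβ. CD4 Mat over CD4+CD8lo was 0.06 ± 0.27 (SE; adjusted p = 0.97) and CD8 Mat over DP3 0.28 ± 0.25 (SE; adjusted p = 0.36), neither called, where 20.7% and 55.9% of antibodies were. CD8 Mat over DP3 was 1.31 in the 2 unsorted B6 mice, which was called, and -0.18 in the 3 sorted ones, which was not. This difference was not itself tested, and DP3 of the unsorted mice held far more *Rag1*, as given with the gates. With antibody counts averaged over neighboring cells CD8 Mat over DP3 was -0.83, called in the opposite direction, so that its direction was not settled. The difference of DP3 from CD4+CD8lo was not called once antibody counts were averaged over neighboring cells (-0.53). The antibody to TCR γδ passed the test in none of the 8 stage comparisons, with log2 changes from -0.15 to 0.11.

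Within a mouse, the TCRb change was set against that of the summed RNA of the 4 chains. From DP1 to CD4 Mat the antibody changed by 2.76 and the RNA by -0.09 in the log2 ratio of per-total values, a difference of 2.84 ± 0.98 (SD, n = 13, higher in 13 of 13 mice, two-sided exact sign-flip permutation p = 0.000244). From DP1 to CD8 Mat the values were 1.52 and -0.40, a difference of 1.92 ± 0.74 (SD, n = 13, higher in 13 of 13 mice, two-sided exact sign-flip permutation p = 0.000244). Both are the smallest p that 13 mice allow. The mice and gates were those of the share, among them the mature gates against the fate. Per total UMIs, the median of all genes tested was -0.43 in CD4 Mat and -0.38 in CD8 Mat of B6 mice. The summed RNA was higher in CD4 Mat than in DP1 in AND replicate 1 (0.18) and the OT-I mice (0.32 and 0.12). In CD8 Mat it was higher in OT-I replicate 1 (0.01), and all other mice were lower. In the 8 unsorted mice with both stages the differences were 2.70 and 1.89. Antibodies to CD3 itself were listed in the third experiment, but at most 76 UMIs were counted in any lane, next to 55602 to 151047 UMIs of TCRb, so that no surface CD3 level is given.

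Across RNA cluster classes, which were built without the CD3 and receptor genes, *Cd247* was highest in quiescent DP-like and CD4 SP-like cells and low in CD8 SP-like, DN-like and NKT-like cells. In B6 mice it stood at 638, 581, 579, 489 and 379 CPM in quiescent DP-like cells, the resting double-positive cells before selection. CD4 SP-like cells of replicates 1 to 4 held 507, 456, 389.6 and 390.3 CPM, all within that range. CD8 SP-like cells held 206, 194, 181, 141 and 148 CPM, below all values of both. Replicate 5 had 8 CD4 SP-like cells and did not enter the CD4 SP-like class.

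Over quiescent DP-like cells, *Cd247* stood at -0.11 ± 0.11 (SE; adjusted p = 0.44) in CD4 SP-like cells and fell by 1.17 ± 0.11 in CD8 SP-like cells (SE, adjusted p = 6.6e-14). With total UMIs edgeR called it lower in CD4 SP-like cells too, at -0.34 (adjusted p = 0.0056), next to a median of -0.22. CD4 SP-like exceeded CD8 SP-like cells by 1.07 ± 0.11 (SE; adjusted p = 1.5e-11), the only chain of 4 called there, where 29.2% of genes were. DESeq2 called 2, and without B6 replicate 5 edgeR also called *Cd3g*, at -0.19. Over all genotypes, 2729 CD4 SP-like cells fell in the CD4 SM gate and 22 in CD4 Mat. Of CD8 SP-like cells, 1505 fell in CD8 SM and 2094 in CD8 Mat. The classes thus differed in maturity as well as lineage, and these cannot be told apart in this comparison. *Cd247* was lower by -0.40 ± 0.11 (SE; adjusted p = 0.0036) in signaled DP-like cells, -0.46 ± 0.11 (SE; adjusted p = 0.00035) in mature SP-like cells and -0.42 ± 0.11 (SE; adjusted p = 0.0014) in interferon-like cells.

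The lowest *Cd247* of T lineage classes was in the class named NKT-like from its markers, at -1.93 ± 0.16 (SE; adjusted p = 1.2e-14). The identity of this class is not settled. Beside *Cd247*, the γ constant genes *Tcrg-C4* (6.76 ± 0.51) and *Tcrg-C1* (5.92 ± 0.46) and *Fcer1g* (6.72 ± 0.47), another ITAM chain, rose in it (log2 fold change ± SE), while the β constant genes *Trbc2* (-1.74 ± 0.10) and *Trbc1* (-1.97 ± 0.13) fell. Its TCRb antibody ran from 30.01 to 72.7 per 10000 in the 4 B6 mice with enough cells. DN-like cells, which precede the αβ receptor, followed at -1.52 ± 0.16 (SE; adjusted p = 3.1e-11), from the 2 B6 mice with at least 20 such cells. Treg-like cells stood at -1.05 ± 0.13 (SE; adjusted p = 7.1e-10), negative selection-like cells at -1.12 ± 0.11 (SE; adjusted p = 1.2e-12) and cycling-like cells at -1.03 ± 0.10 (SE; adjusted p = 8.8e-13). The order among NKT-like, DN-like and CD8 SP-like cells was not tested, and their per-mouse ranges, 82.9 to 143, 135 to 153 and 141 to 206 CPM, were adjacent or overlapped.

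*Cd3g* behaved differently from *Cd247* in these classes. It was higher than in quiescent DP-like cells in DN-like cells, at 1.09 ± 0.11 (SE; adjusted p = 6.3e-12), and this held with total UMIs, at 0.95 (adjusted p = 2.0e-12), next to a median of -0.18. In the 2 B6 mice with DN-like cells it stood at 2949 and 1269 CPM, a spread that these p-values do not measure by itself. It was also higher in CD8 SP-like (0.63 ± 0.08 (SE; adjusted p = 9.1e-09)), CD4 SP-like (0.46 ± 0.09 (SE; adjusted p = 2.3e-05)) and signaled DP-like cells (0.44 ± 0.09 (SE; adjusted p = 7.8e-05)), and kept these directions with total UMIs at 0.21, 0.22 and 0.41. In mature SP-like and interferon-like cells the TMM values of 0.59 ± 0.09 (SE; adjusted p = 1.6e-07) and 0.50 ± 0.09 (SE; adjusted p = 7.7e-06) shrank to 0.16 (adjusted p = 0.054) and 0.10 (adjusted p = 0.24) with total UMIs.

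*Cd3d* was called higher in signaled DP-like cells at 0.42 ± 0.12 (SE; adjusted p = 0.0056), a call lost without B6 replicate 2 (0.41), and lower in cycling-like cells at -0.73 ± 0.11 (SE; adjusted p = 2.3e-07). All 4 chains were called lower in cycling-like cells, where 62.3% of genes were called in either direction. That of *Cd3g* was lost without B6 replicate 1 (-0.18) or 4 (-0.21). All 4 were also lower in myeloid-like cells, from -1.89 to -1.19, where 31.5% were called.

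Counts of chains called per class, each with the share of genes called, were 3 of 4 in signaled DP-like (35.4%), 1 in CD4 SP-like (50.1%), 2 in CD8 SP-like (56.9%) and 2 in mature SP-like cells (49.9%). They were 2 in interferon-like (45.6%), 2 in Treg-like (37.4%), 1 in negative selection-like (53.8%), 1 in NKT-like (41.5%) and 2 in DN-like cells (44%). With 4 members these counts say little beside such shares, and the direction and size are given per chain. Leaving out B6 replicate 5 added both *Cd3d* (0.24) and *Cd3e* (0.27) in CD8 SP-like cells and *Cd3d* in CD4 SP-like cells (0.30). With total UMIs in all B6 mice, edgeR put *Cd3d* at -0.23 (adjusted p = 0.063) and *Cd3e* at -0.21 (adjusted p = 0.037) in CD8 SP-like cells. *Cd3d* stood at 0.03 (adjusted p = 0.87) in CD4 SP-like cells. The directions in CD8 SP-like cells were thus not settled.

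**Figure D3:**
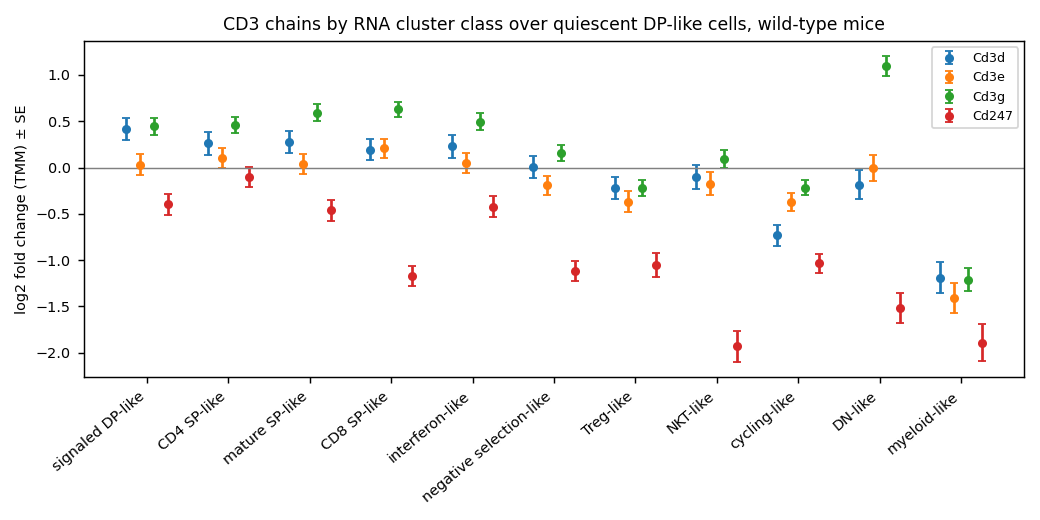
Log2 fold change under TMM, with its SE, of each CD3 chain in 11 RNA cluster classes over quiescent DP-like cells of wild-type mice. *Cd247* lies between -1.93 in NKT-like and -0.11 in CD4 SP-like cells, and *Cd3g* reaches 1.09 in DN-like cells.

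With cells of all genotypes pooled and each thinned to 1000 UMIs, *Cd247* was counted in 35.9% (35.1 to 36.7%) of quiescent DP-like, 37.9% (36.5 to 39.4%) of CD4 SP-like and 24.2% (23.1 to 25.2%) of CD8 SP-like cells (exact 95% binomial intervals, counting error only). Unthinned, these shares were 60.3%, 83.8% and 77.2%, at median depths of 2196, 4774 and 6078 UMIs. Quiescent DP-like cells under 1000 UMIs, 652 in number, were left out. Thinned to 2000 UMIs, the shares were 62.1%, 59.7% and 40.7%, with 6161 quiescent DP-like cells left out. The order of quiescent DP-like and CD4 SP-like cells thus turned between 1000 and 2000 UMIs, and CD8 SP-like cells were lower at both. The quiescent DP-like cells kept also changed, from 13577 to 8068, so that depth and this loss of cells cannot be told apart. Wild-type cells made up 84.6%, 86.2% and 87.3% of the quiescent DP-like clusters. They made up 42.3% of the CD4 SP-like cluster and 30.4%, 1.12% and 21.3% of the CD8 SP-like clusters. Class and genotype thus cannot be told apart in these pooled shares. NKT-like cells had *Cd247* in 10.2% and *Cd3g* in 69.1% of cells. In B-like cells, which should lack CD3, thinned shares were 3.03% for *Cd247*, 3.03% for *Cd3d* and 4.55% for *Cd3g* over 66 cells at a median of 4134 UMIs. Myeloid-like cells had *Cd247* in 17.2% and *Cd3d* in 41.9% of cells, above the B-like shares, and the source of this RNA was not tested.

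Gamma-delta T-like cells came almost only from lineage-restricted mice. Over the 7 mice with enough such cells, *Cd247* had lowest 283, median 372 and highest 454 CPM, and *Cd3g* lowest 592, median 1259.8 and highest 1684. TCRb antibody in these cells had lowest 97.8, median 139 and highest 200.4 per 10000, as high as in single-positive classes, which goes against a γδ receptor. The class is therefore better named by its leading genes, *Maf*, *Sox13* and *Blk*.

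The second question was whether CD4-fated and CD8-fated mice differed in the chains at the same stage. In mature cells, CD4 Mat of CD4-fated against CD8 Mat of CD8-fated mice, *Cd247* stood at 334 and 403 CPM in AND, 219 and 196 in OT-II and 268 and 318 in MHCI-/- mice. It stood at 399.8 and 199 in F5, 159 and 153 in OT-I and 167 and 167 in MHCII-/- mice. Within each family the CD4-fated mean was higher, but F5 replicate 1 lay among the highest of all.

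With the family as covariate, the difference of *Cd247* was 0.57 ± 0.17 (SE; adjusted p = 0.052), just short of the threshold. Without F5 replicate 1 it was 0.72 (adjusted p = 0.012), and without OT-I replicate 1 0.60 (adjusted p = 0.049), by the same edgeR test. DESeq2 also called it. With the 2 mice of a family that share a replicate number as a block it was called too, at 0.59 (adjusted p = 0.046, edgeR). AND and F5 mice of the same number were in the same experiment. The first experiment held only B6 replicate 1, AND replicate 1 and F5 replicate 1, so that leaving out the last leaves AND replicate 1 unmatched there. In all cells summed, these mice had the highest *Cd3e* of all mice, at 981, 734 and 1027 CPM. A part of the experiment in the *Cd247* difference was not tested. *Cd3d* at 0.08 ± 0.20 (SE; adjusted p = 0.85), *Cd3e* at 0.13 ± 0.16 (SE; adjusted p = 0.66) and *Cd3g* at 0.17 ± 0.21 (SE; adjusted p = 0.68) were not called. In all, edgeR called 0 of 4, with 1 at an unadjusted p under 0.05, and DESeq2 called 1, where 7.91% of 8900 genes were called by edgeR.

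The *Cd247* share of the chains was lowest 7.02, median 8.62 and highest 10.0% in CD4-fated and lowest 5.02, median 5.92 and highest 9.19% in CD8-fated mice. The difference of the means was 1.96 percentage points, with overlapping groups (n = 6 and 6, two-sided exact permutation p = 0.0649, smallest possible 0.00216). That test permuted over all 12 mice and took no account of family. With the labels permuted within each family, p was 0.0370 (two-sided exact permutation, smallest possible 0.00926), so that the side of the threshold depended on this choice. With the gates lowered by 0.5 on the log2 scale the difference was 1.97 (exact permutation p = 0.0303), with the gates raised by 0.5 2.55 (exact permutation p = 0.0390), and with antibody counts averaged over 20 nearest cells 3.79 (exact permutation p = 0.0173, 11 mice).

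**Figure D4:**
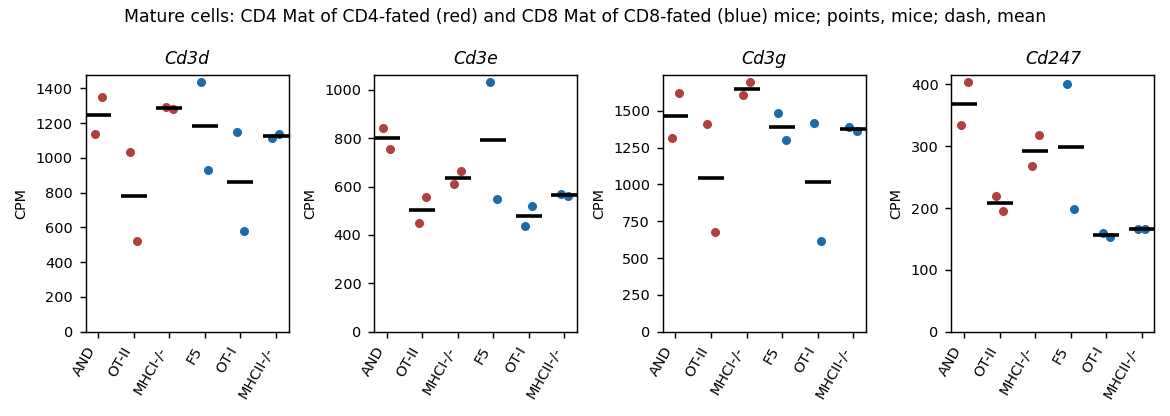
CPM of each chain in mature cells of the 6 lineage-restricted genotypes, CD4 Mat of CD4-fated mice in red and CD8 Mat of CD8-fated mice in blue; points are mice and bars means of 2. *Cd247* spans 196 to 403 CPM in CD4-fated and 153 to 399.8 in CD8-fated mice, with F5 replicate 1 highest of the latter.

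Before maturity no difference between the lineages was detected. In DP1, edgeR and DESeq2 called 0 of 4 chains with 0 at an unadjusted p under 0.05 in each, and the 4 differences ran from -0.07 to 0.04 (0.0119% of genes called). The same counts held in DP2, from -0.19 to 0.07 (0.134% called), and in DP3, from -0.23 to 0.15 (1.12% called). Standard errors were 0.13 to 0.22 over these stages, which leaves room for modest differences. The gates held other classes than in wild-type mice. In DP1, quiescent DP-like cells made up 19.7% where the fate was CD4 and 15.03% where it was CD8, and CD8 SP-like cells 0.585% and 15.4%, while 72.8% and 51.2% were unnamed. In DP3, CD4 SP-like cells were 22.0% and 3.18%. The part of this makeup in the values was not tested. In CD4+CD8lo cells only OT-II and OT-I mice informed the contrast, and again 0 of 4 chains were called by either tool (0.077% called). Within the 3 genotype pairs no chain was called by edgeR at any stage, with a lowest adjusted p of 0.20, for MHCI-/- over MHCII-/- mature cells, the only pair with 1 chain at an unadjusted p under 0.05. DESeq2 was not run on the pairs. Of all genes, 0.0685%, 0.179%, 0.108% and 8.07% were called between AND and F5 in DP1, DP2, DP3 and mature cells, 0.126%, 0.0638%, 0.356% and 2.59% between MHCI-/- and MHCII-/-, and 0.468%, 1.91%, 2.6% and 0.564% between OT-II and OT-I, with 0.077% in CD4+CD8lo. The test that the lineage difference is equal over the 3 families called no chain either, where it called 0.468%, 0.932%, 0.765% and 1.47% of genes in these 4 stages.

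TCRb antibody in mature cells had lowest 115, median 166 and highest 276 per 10000 antibody UMIs in CD4-fated and lowest 70.8, median 84.3 and highest 126 in CD8-fated mice. The groups overlapped at their edges, and the difference was 0.79 ± 0.32 (SE; adjusted p = 0.16), where 9.91% of antibodies were called. It passed with total antibody UMIs as library size, at 0.95. By pair, MHCI-/- exceeded MHCII-/- mature cells by 1.55 ± 0.41 (SE; adjusted p = 0.0013), both being sorted on TCRβ, and OT-II was below OT-I at -1.62 ± 0.46 (SE; adjusted p = 0.041) in DP2 and -1.71 ± 0.48 (SE; adjusted p = 0.03) in DP3. Of the 111 antibodies, 23.4%, 5.41% and 14.4% were called in these 3 comparisons. The mature difference was not shown to differ between families (adjusted p = 0.20, edgeR, where 24.3% of antibodies were called).

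The other genes of the pathway were taken as 5 lists, 46 genes in all, of receptor constant chains, proximal kinases and adaptors, accessory receptors, negative regulators and other ITAM chains. From DP1 to CD4 Mat, 9 rose and 17 fell of 44 tested, with a median of -0.22, next to 21.3% and 19.8% of all genes and their median of -0.04. The clearest rises were *Ubash3b* (3.44 ± 0.43), a phosphatase that dampens TCR signals, *Fyn* (1.18 ± 0.16), a SRC family kinase, *Cblb* (1.54 ± 0.23), a ubiquitin ligase, and *Cd2* (1.37 ± 0.25), an adhesion receptor. The clearest falls were *Trbc2* (-0.98 ± 0.06), a TCR β constant gene, *Themis* (-2.35 ± 0.17), a signaling adaptor of double-positive cells, and *Cbl* (-1.53 ± 0.12) and *Sla* (-2.08 ± 0.17), which act in receptor turnover. Values are log2 fold changes ± SE under TMM.

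From DP1 to CD8 Mat, 9 rose and 22 fell, next to 26.2% and 25.6% of all genes. *Trbc2* (-1.05 ± 0.06), *Themis* (-1.97 ± 0.15) and *Cbl* (-1.39 ± 0.11) fell here too, with *Cd28* (-2.24 ± 0.21), a costimulatory receptor. *Ubash3b* (2.59 ± 0.44), the phosphatase *Ptpn6* (0.75 ± 0.15), *Cblb* (0.99 ± 0.22) and the γ constant gene *Tcrg-C2* (2.35 ± 0.53) rose. Counts on *Trbc2* and *Tcrg-C2* may be shared with near-identical constant genes. From DP3 to CD8 Mat the counts were 9 up and 25 down of 44, where 48.6% of all genes were called. *Cd28* (-2.83 ± 0.21), *Trbc2* (-0.83 ± 0.06), *Themis* (-1.29 ± 0.15) and *Cbl* (-0.92 ± 0.11) fell, and *Trdc* (1.5 ± 0.32), *Tcrg-C2* (2.31 ± 0.51), *Tcrg-C1* (1.76 ± 0.47) and *Ptcra* (1.36 ± 0.38), the pre-TCR α chain, rose.

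In CD4 Mat over CD8 Mat, 10 of the 44 listed genes tested were higher and 5 lower, where 23% of all genes were called. All 5 accessory receptors were higher, among them *Cd28* (1.65 ± 0.22), *Cd5* (1.5 ± 0.25) and *Cd6* (0.78 ± 0.14), as was the α constant gene *Trac* (0.85 ± 0.14). *Cd79b*, an ITAM chain of the B cell receptor, was lower at -4.07 ± 0.52, with *Trdc* (-1.67 ± 0.38), *Ptcra* (-1.91 ± 0.52) and *Tcrg-C1* (-2.73 ± 0.79). From DP1 to DP2, 7 rose and 0 fell of 44, where 4.09% of all genes were called, led by *Cd2* (1.34 ± 0.24), *Cd28* (0.91 ± 0.18), *Cd5* (0.94 ± 0.22) and *Cd6* (0.53 ± 0.13). Between CD4-fated and CD8-fated mature cells 3 of 42 tested were called, where 7.91% of all genes were, *Trac* (2.21 ± 0.38) and *Cd28* (1.04 ± 0.20) higher and *Cd79b* (-2.71 ± 0.56) lower. *Trac* was also called higher in DP3 (2.43 ± 0.57) and in CD4+CD8lo (4.68 ± 0.38), where only OT-II and OT-I mice informed the contrast. AND, OT-II, F5 and OT-I mice carried TCR transgenes, whose part in the *Trac* counts was not tested.

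Over the 39 samples of B6 mice and gates, the chains were not equally alike. The log2(CPM + 1) levels of *Cd3d* and *Cd3g* correlated at Pearson r = 0.90, and at 0.66 once each mouse's mean was removed. *Cd3d* and *Cd247* went from 0.67 to 0.86 on the same step, and *Cd3g* and *Cd247* from 0.34 to 0.35. The samples share mice, libraries and depth, so that these values only describe the set.

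Of 5839 genes at a mean of at least 20 CPM, the most alike to *Cd247* were *Anxa5* (0.90), *Gimap9* (0.89), *Satb1* (0.89), *Pnrc1* (0.89) and *Ets1* (0.89), with r of 0.90 to 0.94 within mice. Those most alike to *Cd3d* were *Gpsm3* (0.96), *Ftl1* (0.96), *Itm2b* (0.95), *Pigx* (0.95) and *Ubxn6* (0.94), with 0.81 to 0.89 within mice. Those most alike to *Cd3e* were *mt-Nd4* (0.91), *Zap70* (0.85), *Wdr1* (0.83), *mt-Cytb* (0.83) and *Man2b1* (0.82), with 0.74 to 0.80 within mice. Those most alike to *Cd3g* were *Ubb* (0.96), *Arf5* (0.96), *Jund* (0.95), *Pfdn5* (0.95) and *Twf2* (0.94), but with only 0.46 to 0.62 within mice.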

How the data were processed

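Thymocytes of 17 mice were profiled by CITE-seq. The authors deposited UMI counts per lane, gene or antibody and barcode, not normalized, made with Cell Ranger 3.1.0 on mm10 (GRCm38) per the submitters' processing notes. The 4 members and all gene lists were chosen with earlier results of these data known. Barcodes with at least 200 genes, under 15% mitochondrial UMIs, 1000 to 10000 antibody UMIs and at least 70 antibodies were kept, and 2729 called doublets (3.79%) were removed, at 0.8% per 1000 barcodes of the lane.

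RNA of 69325 cells was clustered by the Leiden method (scanpy 1.11.5, 30 components, 20 neighbors) without CD3, receptor, MHC, mitochondrial, ribosomal and sex genes, and 31 of 41 clusters were named from fixed markers; 21533 cells stayed unnamed. In all, 3 clusterings were run. The first, uncorrected, was replaced after single-positive cells of B6 replicate 5 were seen in unnamed clusters, the second separated groups of lanes in the third experiment, and the one used corrects the components for the experiment by the Harmony procedure. This choice was made with no CD3 value seen, and the other clusterings are alternatives.

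Of 55943 conventional cells, 42545 (76.1%) fell in 8 gates, set by Otsu thresholds on log2(antibody UMIs per 10000 + 1), 1 per antibody and experiment. UMIs were summed per mouse and gate or class with at least 20 cells, giving 74463 to 26184550 RNA UMIs per sum. Counts were tested with edgeR 4.0.16 in R 4.3.3 (quasi-likelihood, TMM, low-count filter, Benjamini-Hochberg over all features), with the mouse as block in B6 fits and the family as covariate between lineages. DESeq2 1.42.0 and other filters, gates, scalings and left-out mice were alternatives. Calls use an adjusted p under 0.05. Shares and per-mouse changes were tested by exact permutation. The fit was tested on simulated data. Printed CPM are plain UMIs per 1000000. Named genes were the 4 chains, the 4 listed pathway genes with the lowest adjusted p in each direction, the 5 genes most alike to each chain, and *B2m* and *H2-Ab1*. Beyond that rule, *Rag1* and *Mki67* are given as checks of the gates and *Maf*, *Sox13* and *Blk* as leading genes of a class, chosen after their values were seen. In B6 fits the mouse is a block, so that their p-values rest on the spread left between sums over all gates or classes, shared in part across genes. The other p-values rest on the spread between mice. A pooled matrix of lanes was not used here.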

Additional observations from a re-analysis of the deposited data

Results flagged for a closer look

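In groups of 4 to 10 mice the lowest or highest mouse was compared with its nearest neighbor by Dixon's ratio, in 96 groups, of which 20 stood out; chance gives about 1 in 20 groups. B6 replicate 5 was the lowest wild-type mouse for *Cd3d* in DP3 (916 CPM) and CD4 Mat (706). It was the lowest for *Cd3g* in DP2 (678), DP3 (708), CD4 SM (714), CD4 Mat (586) and CD8 SM (689). Its *Cd247* share of the 4 chains was the highest in DP2 (12.6%), CD4+CD8lo (13.4%) and CD8 Mat (7.57%).

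OT-I replicate 2 was the lowest CD8-fated mouse for *Cd3d* in DP2 (903 CPM) and DP3 (886) and for *Cd3g* in DP1 (521), DP3 (678) and mature cells (613). OT-II replicate 2 was the lowest CD4-fated mouse for *Cd3g* in DP3 (669 CPM) and mature cells (680.3). These 3 mice were those of the higher replicate number of their genotype in the third experiment. Their lane medians, 1519 to 3192 UMIs, were among the lowest, and a part of depth was not tested.

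F5 replicate 1, the only CD8-fated mouse of the first experiment, was the highest CD8-fated mouse in mature cells for *Cd3e* (1033 CPM) and *Cd247* (399.8 CPM). B6 replicate 2 had the lowest TCRb antibody of 4 wild-type mice in CD4+CD8lo cells (123 per 10000).

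The CD3 antibodies listed in the third experiment, outside the shared panel, were counted at up to 30 UMIs (CD3) and 76.0 UMIs (CD3e) per lane, both in a lane of B6 replicate 4. There is no control lane for them.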

How the results depend on the processing

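The fall of *Cd247* from DP1 to both mature gates, its lower level in CD8 Mat than CD4 Mat and the rise of TCRb antibody over CD3 RNA kept their direction and call under every alternative run that gave them a value. Several directions of *Cd3d*, *Cd3e* and *Cd3g* between stages did not. Over all results and alternatives 1059 values kept direction and call and 147 moved or crossed the threshold, and 31 changed direction. Replicate numbers gave no sure pairing. AND and F5 mice of one number shared an experiment, and deviations of same-numbered mice correlated at 0.33 to 0.58 in OT-II with OT-I but at -0.19 to 0.09 in the other families. A fit with the replicate block called 1 chain (from 0) in CD4-fated over CD8-fated mature cells, *Cd247* at 0.59. Shallow lanes and gates with few cells limit small differences, and the cause of each change below was not tested. The counts of chains below stand without the share of all genes called in the same fit, and say little without it. In place of gates, signaled DP-like cells stood for DP2, mature SP-like for CD4 Mat and CD8 SP-like for CD8 Mat against quiescent DP-like for DP1, but CD4 SP-like against CD8 SP-like for CD4 Mat over CD8 Mat. CD4 SP-like cells were 0.933% of wild-type CD4 Mat, so that this last comparison is of other cells and not a check on that gate.

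With DESeq2, the chains called were 1 (from 0) in CD4-fated over CD8-fated, mature, 2 (from 1) in CD4 SP-like over CD8 SP-like, 2 (from 1) in negative selection-like over quiescent DP-like. With RNA classes in place of gates, the chains called were 1 (from 3) in CD4 Mat over CD8 Mat, 3 (from 0) in DP2 over DP1 and values were -0.11 (from 0.0788) for *Cd3e* in CD4 Mat over CD8 Mat, -0.17 (from 0.22) for *Cd3g* in CD4 Mat over CD8 Mat, 0.19 (from -0.19) for *Cd3d* in CD8 Mat over DP1, 0.21 (from -0.0582) for *Cd3e* in CD8 Mat over DP1. With RNA filters only, the chains called were 1 (from 0) in DP3 over CD4+CD8lo, 1 (from 0) in CD4-fated over CD8-fated, mature. With all cells gated, the chains called were 1 (from 3) in CD8 Mat over DP1, 2 (from 0) in DP2 over DP1. With doublets kept, the chains called were 1 (from 0) in CD4-fated over CD8-fated, mature. With no low-count filter, the chains called were 1 (from 0) in CD4-fated over CD8-fated, mature. In sorted B6 mice, the chains called were 1 (from 3) in CD4 Mat over CD8 Mat, 1 (from 0) in CD4+CD8lo over DP2, 1 (from 3) in CD8 Mat over DP3, 1 (from 0) in DP2 over DP1 and values were -0.0617 (from 0.0788) for *Cd3e* in CD4 Mat over CD8 Mat, 0.17 (from -0.0582) for *Cd3e* in CD8 Mat over DP1, 0.0164 (from -0.11) for *Cd3g* in CD8 Mat over DP3, -0.0917 (from 0.0586) for TCRb antibody in CD4 Mat over CD4+CD8lo, -0.18 (from 0.28) for TCRb antibody in CD8 Mat over DP3. With gates lowered by 0.5, the chains called were 1 (from 3) in CD8 Mat over DP1 and values were 1.97 points (from 1.96 points) for the lineage difference of the *Cd247* share, which then passed the test. With gates raised by 0.5, the chains called were 1 (from 0) in CD4-fated over CD8-fated, mature and values were 2.55 points (from 1.96 points) for the lineage difference of the *Cd247* share, which then passed the test. With total antibody UMIs, values were 0.0276 (from -0.11) for TCRb antibody in CD4-fated over CD8-fated, CD4+CD8lo, 0.95 (from 0.79) for TCRb antibody in CD4-fated over CD8-fated, mature. In unsorted B6 mice, values were 1.31 (from 0.28) for TCRb antibody in CD8 Mat over DP3.

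Alternatives chosen after seeing the data follow. With antibody counts averaged over 20 nearest cells, the chains called were 1 (from 0) in CD4+CD8lo over DP2, 2 (from 0) in DP2 over DP1, 1 (from 0) in DP3 over CD4+CD8lo, 1 (from 0) in CD4-fated over CD8-fated, mature and values were 0.0286 (from -0.0582) for *Cd3e* in CD8 Mat over DP1, -0.83 (from 0.28) for TCRb antibody in CD8 Mat over DP3, -0.53 (from -1.53) for TCRb antibody in DP3 over CD4+CD8lo, 3.79 points (from 1.96 points) for the lineage difference of the *Cd247* share, which then passed the test. With lane groups corrected, the chains called were 2 (from 1) in CD4 SP-like over CD8 SP-like, 2 (from 1) in CD4 SP-like over quiescent DP-like, 2 (from 1) in negative selection-like over quiescent DP-like and values were -0.00698 (from 0.0206) for *Cd3e* in CD4 Mat over DP1. With no correction of clusters, the chains called were 4 (from 2) in Treg-like over quiescent DP-like, 2 (from 1) in negative selection-like over quiescent DP-like. With labels permuted within families, values were 1.96 points (from 1.96 points) for the lineage difference of the *Cd247* share, which then passed the test. With total RNA UMIs, the chains called were 2 (from 0) in CD4 Mat over CD4+CD8lo, 1 (from 0) in CD4+CD8lo over DP2, 1 (from 0) in DP3 over CD4+CD8lo, 2 (from 1) in CD4 SP-like over quiescent DP-like, 4 (from 1) in NKT-like over quiescent DP-like, 4 (from 2) in Treg-like over quiescent DP-like, 2 (from 1) in negative selection-like over quiescent DP-like and values were -0.31 (from 0.0822) for *Cd3d* in CD4 Mat over DP1, -0.37 (from 0.0206) for *Cd3e* in CD4 Mat over DP1, -0.16 (from 0.21) for *Cd3g* in CD8 Mat over DP1. Without unnamed replicating clusters, the chains called were 1 (from 3) in CD4 Mat over CD8 Mat and values were -0.0925 (from 0.0788) for *Cd3e* in CD4 Mat over CD8 Mat, -0.00923 (from 0.22) for *Cd3g* in CD4 Mat over CD8 Mat, -0.00945 (from 0.0206) for *Cd3e* in CD4 Mat over DP1, 0.0830 (from -0.0582) for *Cd3e* in CD8 Mat over DP1, 0.18 (from -0.11) for *Cd3g* in CD8 Mat over DP3, -0.0165 (from 0.0840) for *Cd3d* in CD4-fated over CD8-fated, mature.

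Leaving out 1 mouse in turn gave 1 to 3 chains in CD4 Mat over CD8 Mat, -0.0208 to 0.14 for *Cd3e* in CD4 Mat over CD8 Mat, -0.0296 to 0.0424 for *Cd3e* in CD4 Mat over DP1, 1 to 2 chains in CD8 Mat over DP1, -0.14 to 0.0592 for *Cd3e* in CD8 Mat over DP1, 0 to 1 chains in DP3 over CD4+CD8lo, 0 to 1 chains in CD4-fated over CD8-fated, mature, 1 to 2 chains in CD4 SP-like over CD8 SP-like, 1 to 2 chains in CD4 SP-like over quiescent DP-like, 2 to 4 chains in CD8 SP-like over quiescent DP-like, 1 to 2 chains in negative selection-like over quiescent DP-like, -0.0870 to 0.19 for TCRb antibody in CD4 Mat over CD4+CD8lo, -0.0485 to 0.39 for TCRb antibody in CD8 Mat over DP3, 0.99 to 1.12 for TCRb antibody in DP2 over DP1, -0.39 to 0.12 for TCRb antibody in CD4-fated over CD8-fated, CD4+CD8lo.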
